A study of Mus musculus with 12 samples.

Results

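The genes described here are 42 mouse genes whose products copy DNA or make the deoxynucleotides it is built from. They were listed by symbol in 8 groups by role, and the brightest probe set that carries only that symbol stood for each gene. Of the 42, 41 had such a probe set and all 41 passed the brightness limit for testing, out of 15348 genes tested in all. The remaining gene, Rfc4, a subunit of the clamp loader, was measured only by a probe set shared with Eif4a2 and was not used. In irradiated cells 26 of the 41 were lower than in untreated cells when both genotypes were averaged, against 9.6% of all genes tested. None was higher, against 6.9% of all genes, and no difference between the genotypes passed the test.

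RNA of LSK cells was hybridised to Affymetrix arrays, 1 array a sample. LSK cells are the Lineage-, SCA1+, cKIT+ fraction of bone marrow in which haematopoietic stem cells and multipotent progenitors are found. All mice were older than 20 months and backcrossed to C57BL/6 for at least 10 generations, and they were either Nipa wild type (WT) or Nipa knockout (KO). Each of the 12 samples merged the sorted cells of 3 mice, and all samples were cultured for 30 min in DMEM that held 30% FCS, with the cytokines SCF (50 ng/ml), IL-3 (10 ng/ml) and IL-6 (10 ng/ml). Cells then received 4 Gy of ionizing radiation or no treatment and were harvested after 3 h, which gave 4 groups of 3 arrays: untreated WT, irradiated WT, untreated KO and irradiated KO. The labels give neither the part of the gene that the knockout lacks nor whether untreated and irradiated cells came from the same pools, so the p-values measure the spread between these arrays. In a pooled sample, fewer cells in S phase and less of these RNAs per cell cannot be told apart.

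Zc3hc1, the gene of NIPA, had log2 values of 7.67 to 8.47 in the 6 WT arrays and of 5.61 to 5.82 in the 6 KO arrays. Ly6a, the gene of SCA1, had no probe set named here, and 8 other LSK and stem cell markers passed the brightness limit, with a mean log2 level of 8.63 to 9.19 on every array. The mean of 4 B cell markers was 8.36 on untreated KO replicate 2 and 8.55 on irradiated KO replicate 3, against 5.91 to 7.17 on the other 10. Results in KO cells are therefore also given without those 2 arrays, a setting chosen after their values were seen. Over all genes tested, those 2 arrays also deviated together from their group means (r = 0.44). The mean of 6 erythroid markers was 6.59 to 7.01 in untreated WT, 5.90 to 6.03 in irradiated WT, 7.05 to 7.51 in untreated KO and 5.85 to 6.35 in irradiated KO cells.

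DNA replication starts where the origin recognition complex (ORC) sits on DNA. There CDC6 and CDT1 load the ring-shaped MCM helicase before S phase, and geminin blocks CDT1 until the next cycle. CDC45 and the GINS complex then turn the loaded ring into a moving helicase, polymerase alpha with primase lays down primers, polymerases epsilon and delta extend them while held by the PCNA clamp, and FEN1 and LIG1 join the pieces of the lagging strand. Thymidylate synthase, thymidine kinase, dUTPase and ribonucleotide reductase supply the deoxynucleotides. Many of these genes are transcribed at the entry into S phase under E2F factors, and the control of cell cycle genes after p53 activation is known to run through E2F and CHR promoter elements bound by RB-family and DREAM complexes. Haematopoietic stem cells are mostly quiescent, whereas the progenitors in the LSK gate divide more often.

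Because these promoters are known for E2F sites, the bases before the annotated start were searched on both strands for 4 forms of the E2F core. These forms are TTCCCGC as the first, TTGGCGC as the second, TTCGCGC as the third and TTGCCGC as the last. Also searched were the CHR with the letters TTTGAA, the box known as CCAAT and the GC box with the letters GGGCGG. RefSeq promoter windows of GRCm38.p6 were found for 33 of the 41 genes, 6 of them with more than 1 window, and for each of the 41 windows the 250 bases before the start were read. Shown here are the last 130 bases before the start, on the gene's strand, of 8 genes with a single window. They are the 6 of smallest p in the averaged irradiation contrast (Tyms, Rfc5, Pold1, Pole2, Prim1 and Rrm1) and the 2 of highest change (Orc1 and Orc6), so that both ends of the response can be read side by side. Capitals mark matches to any of the 4 motifs.
Tyms (chr5:30073626-30073755, minus strand): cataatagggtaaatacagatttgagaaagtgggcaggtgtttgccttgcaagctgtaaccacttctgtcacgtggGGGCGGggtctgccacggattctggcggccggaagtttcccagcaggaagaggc
Rfc5 (chr5:117389024-117389153, minus strand): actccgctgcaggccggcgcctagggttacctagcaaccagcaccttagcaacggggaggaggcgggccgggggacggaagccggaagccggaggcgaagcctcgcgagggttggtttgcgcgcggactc
Pold1 (chr7:44548816-44548945, minus strand): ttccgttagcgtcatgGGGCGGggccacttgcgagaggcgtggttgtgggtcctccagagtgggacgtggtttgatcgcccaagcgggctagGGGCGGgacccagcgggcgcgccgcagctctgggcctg
Pole2 (chr12:69228191-69228320, minus strand): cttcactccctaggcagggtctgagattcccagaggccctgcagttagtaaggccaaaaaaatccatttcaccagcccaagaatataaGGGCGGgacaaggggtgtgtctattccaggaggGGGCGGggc
Prim1 (chr10:128015085-128015214, plus strand): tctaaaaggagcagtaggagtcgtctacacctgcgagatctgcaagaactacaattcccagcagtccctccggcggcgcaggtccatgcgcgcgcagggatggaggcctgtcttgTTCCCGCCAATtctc
Rrm1 (chr7:102441565-102441694, plus strand): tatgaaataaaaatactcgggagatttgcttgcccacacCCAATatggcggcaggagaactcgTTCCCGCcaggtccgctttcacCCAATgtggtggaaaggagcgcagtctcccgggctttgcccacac
Orc1 (chr4:108579324-108579453, plus strand): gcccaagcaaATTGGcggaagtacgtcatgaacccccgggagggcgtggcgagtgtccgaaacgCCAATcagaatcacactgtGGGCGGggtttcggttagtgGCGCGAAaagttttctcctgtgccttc
Orc6 (chr8:85299502-85299631, plus strand): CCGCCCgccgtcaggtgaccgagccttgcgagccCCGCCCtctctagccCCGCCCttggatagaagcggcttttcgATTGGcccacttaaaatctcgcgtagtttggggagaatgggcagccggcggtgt

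Prim1 and Rrm1, which were both lower after irradiation, hold the same E2F letters, TTCCCGC, at 15 to 9 and at 67 to 61 bases before the start, in Prim1 overlapping a CCAAT by 1 base. Orc1, with an averaged log2 change of -0.12, holds TTCGCGC on the other strand at 27 to 21 bases before the start. Tyms, Pold1 and Pole2 hold GC boxes and none of the E2F letters within 250 bases, and Rfc5 holds no match to any of the 4 motifs. Over all windows of the list, E2F letters were found in 15 of 41 (36.6%), against 7.89% of all 32851 mouse windows and 12.1% of the 14918 windows of genes tested. CCAAT was found in 51.2% of the list's windows (34.4% for genes tested), the GC box in 65.9% (52.5%) and the CHR letters in 12.2% (11.1%).

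The 14 genes with a match had a median averaged log2 change of -0.43, with 6 of 14 past the test, and the 19 without one had a median of -0.61, with 13 of 19 past it. Both sets held genes from either end of the response, from -0.89 (Prim1) to -0.10 (Orc4) with a match and from -1.07 (Pold2) to -0.23 (Orc6) without. These counts are a description without a test, and a missing match says only that these letters are not in the window read.

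**Figure D1:**
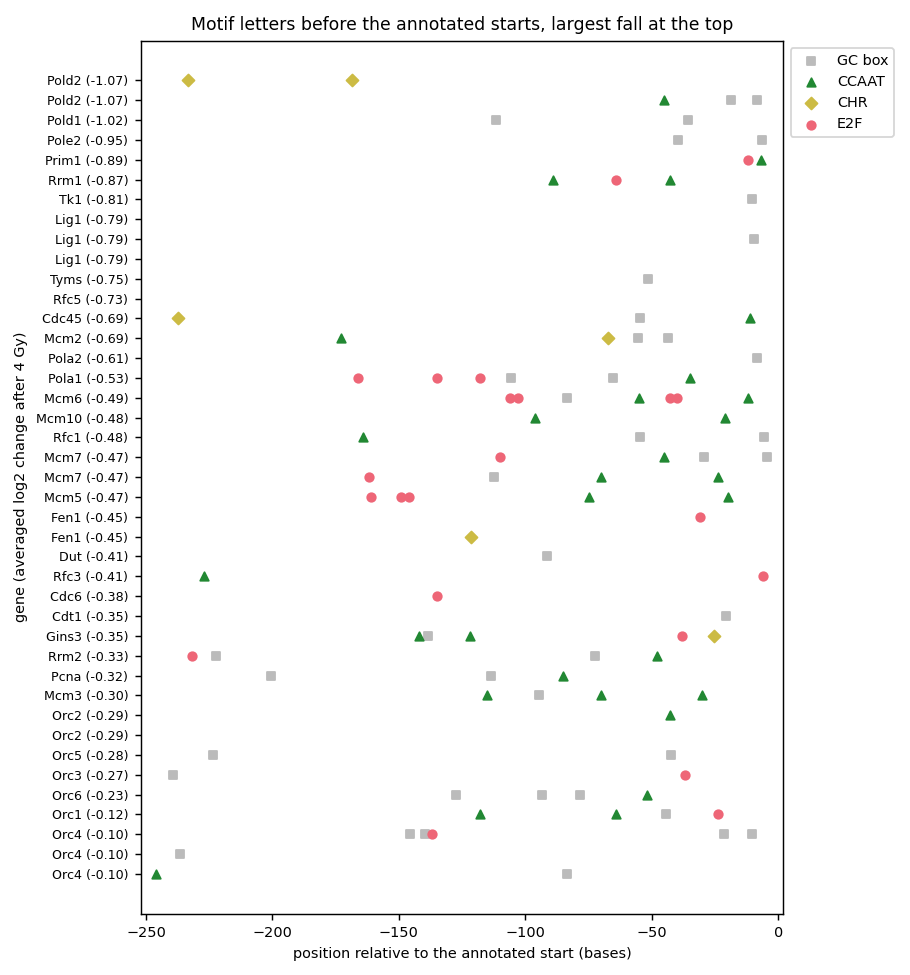
Positions of the motif letters in the 41 promoter windows of 33 genes. The x axis gives bases relative to the annotated start and each line of the y axis is a window, labelled with the gene and its averaged log2 change after 4 Gy, largest fall at the top. E2F letters (red circles) lie in 15 windows, from Prim1 (-0.89) to Orc4 (-0.10).

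After 4 Gy, 6 of 8 polymerase and primase genes fell in each genotype, and 0 of 6 ORC genes were called in either. A gene is called where its limma p, adjusted by Benjamini-Hochberg over all 15348 genes, is under 0.05. In WT cells 13 of 41 genes fell and 0 rose, where 2.7% of all genes tested fell and 2.13% rose (4.83% in all), and 31 of 41 had an unadjusted p under 0.05 (19.8% of all genes). In KO cells 14 of 41 fell and 0 rose, where 3.2% of all genes fell and 2.74% rose (5.94% in all), and 28 of 41 had an unadjusted p under 0.05 (19.9% of all genes). With both genotypes averaged, 26 of 41 fell and 0 rose, where 9.6% of all genes fell and 6.9% rose (16.5% in all). All 41 estimates were below 0 in each genotype, with a median log2 change of -0.54 in WT and -0.42 in KO cells, against 0.0039 and -0.022 over all genes.

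The irradiated arrays lay wholly below the untreated ones in 29 of 41 genes in WT cells (13.3% of all genes) and in 26 of 41 in KO cells (13.2% of all genes). They lay wholly above in 0 of 41 in each, where 11.4% of all genes did so in WT and 10.2% in KO cells. In 21 of 41 genes the irradiated arrays lay wholly below in both genotypes (6.29% of all genes), and in 7 genes, Mcm3, Mcm5, Orc1, Cdc6, Gins4, Pcna and Rrm2, the groups overlapped in both. The calls in both genotypes were those of Pold1, Pold2, Pole, Pole2, Prim1, Rfc2, Rfc5, Lig1, Gmnn, Tyms and Rrm1, 11 genes in all. Gins1 and Pola2 were called in WT and not in KO cells, and Mcm2, Pola1 and Tk1 in KO and not in WT cells. A further 10 genes were called only with both genotypes averaged.

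In a fit blocked on replicate number in each genotype, a pairing that the WT arrays showed, Gins2 (adjusted p = 0.014) and Mcm2 (0.034) were also called in WT cells by limma. With both genotypes averaged, that fit also called Mcm5 (adjusted p = 0.013), Orc2 (0.021), Orc3 (0.048), Cdt1 (0.012) and Rfc3 (0.031). KO arrays paired by number only for replicate 1, so these averaged calls rest partly on KO blocks that the arrays did not show. The calls in WT cells do so through the spread, which that fit estimates per gene over WT and KO arrays together. The count in WT cells was 6 without untreated WT replicate 2, without untreated WT replicate 3 or without irradiated WT replicate 3. In KO cells it was 9 without untreated KO replicate 1, 8 without untreated KO replicate 2 and 7 without irradiated KO replicate 2. Without the 2 KO arrays high in B cell markers, which leaves 2 arrays in each KO group, 4 genes were called in KO cells (Pold2, Pole, Tyms and Lig1), while all 41 estimates stayed below 0 with a median of -0.40.

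**Figure D2:**
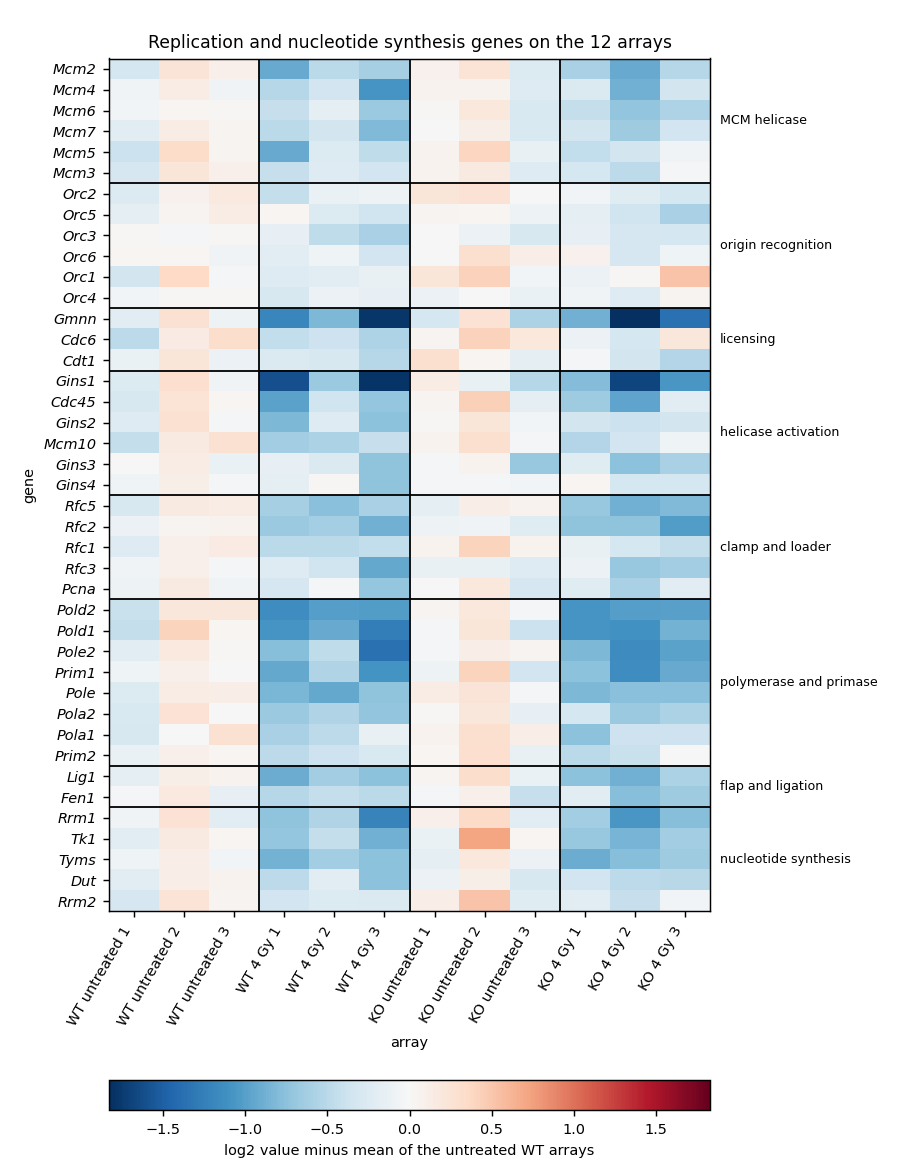
Log2 value of each of the 41 genes (y axis, by role) on each of the 12 arrays (x axis), minus the gene's mean over the 3 untreated WT arrays. Blue is lower and red higher, and the deepest blue on the 6 irradiated arrays is in the polymerase genes, Gmnn and Gins1, while the origin recognition genes stay pale.

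Among the ORC subunits, which mark origins, 0 of 6 were called in WT, in KO or with both averaged. Over all genes 4.83%, 5.94% and 16.5% were called, so 0 of 6 does not set these genes apart. All 6 estimates were below 0 in each contrast, and the median averaged change was -0.25. Without adjustment, 1 of 6 had p under 0.05 in WT, 2 in KO and 4 with both averaged, where 19.8%, 19.9% and 30.1% of all genes did. In the fit blocked on replicate number, Orc2 and Orc3 were called with both averaged (limma adjusted p = 0.021 and 0.048). Those 2 calls rest partly on KO blocks, and KO arrays paired by number only for replicate 1. Orc4, a core subunit and the gene with the smallest change of all, had log2 values of 8.12, 8.20 and 8.19 in untreated WT, 7.89, 8.07 and 8.02 in irradiated WT, 8.07, 8.18 and 8.05 in untreated KO and 8.11, 7.93 and 8.22 in irradiated KO cells. Irradiated KO arrays lay on both sides of the untreated ones, and the changes were -0.18 in WT and -0.01 in KO cells (SE 0.11 each). For the averaged change of -0.10, limma gave an adjusted p of 0.42.

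Orc1, the largest ORC subunit, which joins the complex late and cycles in abundance, had 5.52, 6.20 and 5.81 in untreated WT, 5.61, 5.63 and 5.71 in irradiated WT, 6.07, 6.26 and 5.79 in untreated KO and 5.74, 5.86 and 6.36 in irradiated KO cells. Its highest value of all 12 was that of irradiated KO replicate 3, and the groups overlapped in both genotypes (changes -0.19 in WT and -0.05 in KO, SE 0.20). Orc6, the smallest subunit, had 8.42, 8.42 and 8.32 in untreated WT, 8.19, 8.31 and 8.04 in irradiated WT, 8.40, 8.68 and 8.51 in untreated KO and 8.47, 8.09 and 8.31 in irradiated KO cells. The WT groups did not overlap, by a margin of about the last digit printed, and the averaged change of -0.23 had a limma adjusted p of 0.11. The core subunits Orc2, Orc3 and Orc5 had averaged changes of -0.29, -0.27 and -0.28 (SE 0.10, 0.09 and 0.10), with adjusted p of 0.073, 0.064 and 0.072.

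Of the 3 licensing genes, 1, the inhibitor geminin, fell in each genotype. Gmnn, which encodes geminin, had log2 values of 8.84, 9.31 and 8.94 in untreated WT and 7.83, 8.21 and 7.25 in irradiated WT cells. In KO cells it had 8.71, 9.30 and 8.46 without and 8.16, 7.20 and 7.67 with irradiation. No irradiated array reached an untreated one in either genotype, although the irradiated arrays of a genotype spread over nearly a whole log2 unit.

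Gmnn fell by 1.27 in WT (SE 0.29, limma adjusted p = 0.026, 2.40-fold lower) and by 1.15 in KO cells (SE 0.29, adjusted p = 0.036, 2.22-fold lower). Its averaged change of -1.21 (SE 0.20, adjusted p = 0.0018) was the largest of the 41. Of the loaders, Cdc6 had averaged -0.38 (SE 0.14, adjusted p = 0.084) and Cdt1 -0.35 (SE 0.12, adjusted p = 0.054). Gmnn lost its WT call without untreated WT replicate 2 (adjusted p = 0.12) or 3 (0.081) or irradiated WT replicate 1 (0.054) or 3 (0.12). It lost its KO call without untreated WT replicate 3 (0.053), untreated KO replicate 1 (0.085) or 2 (0.15), or irradiated KO replicate 2 (0.14) or 3 (0.099), and with only the KO arrays in the fit (0.074).

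Of the 6 MCM subunits, which form the ring of the replicative helicase, 0 fell in WT cells, 1 in KO cells and 4 with both averaged (Mcm2, Mcm4, Mcm6 and Mcm7), with a median averaged change of -0.48. Unadjusted, 5 of 6 had p under 0.05 in WT, 4 in KO and 6 with both averaged (19.8%, 19.9% and 30.1% of all genes). Mcm2 had log2 values of 8.97, 9.53 and 9.39 in untreated WT and 8.38, 8.80 and 8.69 in irradiated WT cells. In KO cells it had 9.38, 9.54 and 9.05 without and 8.70, 8.38 and 8.78 with irradiation. The irradiated arrays were lower without overlap in each genotype.

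The changes of Mcm2 were alike in size, -0.68 in WT (SE 0.18, limma adjusted p = 0.055) and -0.71 in KO cells (SE 0.18, adjusted p = 0.041), and the 2 adjusted p lie on either side of the threshold. The KO call was lost without untreated WT replicate 3 (adjusted p = 0.057), irradiated WT replicate 3 (0.053), untreated KO replicate 1 (0.12) or 2 (0.17), or irradiated KO replicate 2 (0.16) or 3 (0.064), when each array's median was subtracted (0.052) and in a fit of the KO arrays alone (0.067). With both genotypes averaged, Mcm2 fell by 0.69, Mcm4 by 0.55, Mcm6 by 0.49 and Mcm7 by 0.47. Mcm5 had -0.47 (SE 0.15, adjusted p = 0.055) and Mcm3 -0.30 (SE 0.12, adjusted p = 0.099), and their groups overlapped in both genotypes.

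Of the 6 genes that activate the loaded helicase, 1 fell in WT cells, 0 in KO cells and 4 with both genotypes averaged. Over all genes 2.7%, 3.2% and 9.6% fell, and the median averaged change of the 6 was -0.50. By unadjusted limma p under 0.05 the counts were 4 in WT, 4 in KO and 5 with both averaged (19.8%, 19.9% and 30.1% of all genes). Gins1, a GINS subunit, had log2 values of 6.97, 7.53 and 7.15 in untreated WT and 5.61, 6.53 and 5.42 in irradiated WT cells. In KO cells it had 7.35, 7.07 and 6.69 without and 6.42, 5.54 and 6.15 with irradiation. The groups did not overlap in either genotype, and irradiated WT replicate 2 lay nearly a log2 unit above the other irradiated WT arrays.

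Gins1 fell by 1.36 in WT cells (SE 0.30, limma adjusted p = 0.021, 2.57-fold lower), the largest WT change of the 41, and had -1.0 in KO cells (SE 0.30, adjusted p = 0.070). Its WT call was lost without untreated WT replicate 2 (adjusted p = 0.10) or 3 (0.071) or irradiated WT replicate 1 (0.062) or 3 (0.099). Cdc45, the partner of MCM and GINS, fell by 0.69 on average (SE 0.16, adjusted p = 0.012), Gins2 by 0.51 and Mcm10, an activator of the helicase, by 0.48. Mcm10 lost its averaged call without untreated WT replicate 2 (adjusted p = 0.062) or 3 (0.060), untreated KO replicate 2 (0.061) or irradiated KO replicate 2 (0.050). The other GINS subunits, Gins3 and Gins4, had -0.35 and -0.23 (adjusted p = 0.15 and 0.23).

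**Figure D3:**
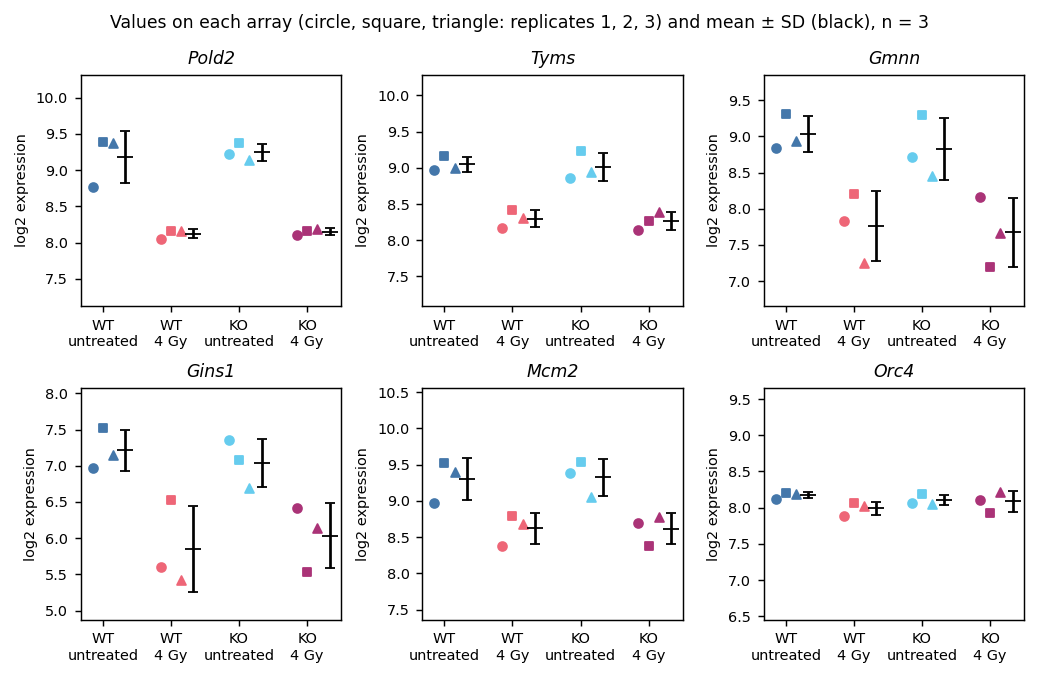
Log2 expression (y axis, spanning the same range in each panel) of 6 genes on each array by group (x axis), with mean ± SD in black (n = 3). The irradiated arrays of Pold2 lie between 8.05 and 8.19, those of Gmnn and Gins1 scatter, and the irradiated KO arrays of Orc4 lie on both sides of the untreated ones.

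Of the clamp and its loader, 2 of 5 genes fell in each genotype and 3 of 5 with both averaged. Rfc2, a small subunit of the loader, had log2 values of 9.22, 9.38 and 9.40 in untreated WT, 8.66, 8.72 and 8.45 in irradiated WT, 9.24, 9.27 and 9.11 in untreated KO and 8.60, 8.60 and 8.32 in irradiated KO cells. Rfc5, another small subunit, had 8.27, 8.73 and 8.70 in untreated WT, 7.96, 7.80 and 7.97 in irradiated WT, 8.39, 8.69 and 8.62 in untreated KO and 7.87, 7.68 and 7.75 in irradiated KO cells. For both genes every irradiated array lay below every untreated array of either genotype.

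Rfc2 fell by 0.73 in WT and by 0.70 in KO cells (SE 0.12 each, limma adjusted p = 0.0038 and 0.0044), and both calls held without any single array. Rfc5 fell by 0.65 in WT (SE 0.14, adjusted p = 0.018) and by 0.80 in KO cells (SE 0.14, adjusted p = 0.0048). The WT call of Rfc5 was lost without untreated WT replicate 2 (adjusted p = 0.092) or 3 (0.089) or irradiated WT replicate 2 (0.060) or 3 (0.052), and its KO call held without any single array. Rfc1, the large subunit, had 7.83, 8.16 and 8.22 in untreated WT, 7.57, 7.57 and 7.62 in irradiated WT, 8.13, 8.48 and 8.13 in untreated KO and 7.94, 7.74 and 7.64 in irradiated KO cells. Its groups did not overlap within a genotype, its changes of -0.48 and -0.47 missed the threshold in WT and KO cells (adjusted p = 0.067 and 0.065), and it fell with both averaged (adjusted p = 0.0055). Rfc3 had an averaged change of -0.41 (adjusted p = 0.051).

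Pcna, the sliding clamp, which p53 can also activate, had 11.54, 11.79 and 11.56 in untreated WT, 11.32, 11.61 and 10.93 in irradiated WT, 11.64, 11.82 and 11.32 in untreated KO and 11.41, 11.04 and 11.43 in irradiated KO cells. Irradiated WT array 3 was the lowest of all, and the groups overlapped in both genotypes. The averaged change was -0.32 (SE 0.13, limma adjusted p = 0.12). Pcna and Rrm2 were given in full after their values were seen, as genes of these groups that did not pass by their brightest probe set.

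The polymerase and primase genes had the most calls, 6 of 8 in WT, 6 of 8 in KO and 8 of 8 with both averaged, with median changes of -0.85, -0.91 and -0.88. Pold2, the small subunit of polymerase delta, had log2 values of 8.77, 9.39 and 9.38 in untreated WT, 8.05, 8.17 and 8.16 in irradiated WT, 9.22, 9.37 and 9.15 in untreated KO and 8.10, 8.17 and 8.19 in irradiated KO cells. Pold1, its catalytic subunit, had 8.74, 9.58 and 9.21 in untreated WT, 8.10, 8.25 and 7.91 in irradiated WT, 9.16, 9.39 and 8.79 in untreated KO and 8.09, 8.07 and 8.30 in irradiated KO cells. In both genes untreated WT replicate 1 was the lowest untreated array and still lay above every irradiated one.

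Pold2 fell by 1.05 in WT (SE 0.15, limma adjusted p = 0.0018, 2.08-fold lower) and by 1.09 in KO cells (SE 0.15, adjusted p = 0.0014, 2.13-fold lower). Its group means were 9.18 ± 0.36, 8.12 ± 0.07, 9.25 ± 0.11 and 8.15 ± 0.04 (SD, n = 3) in the order given. Pold1 fell by 1.09 in WT (SE 0.20, adjusted p = 0.0089) and by 0.96 in KO cells (SE 0.20, adjusted p = 0.016). The KO call of Pold1 was lost without untreated KO replicate 1 (adjusted p = 0.060) or 2 (0.082) or irradiated KO replicate 2 (0.065). The calls of Pold2 held without any single array and without both arrays high in B cell markers.

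Pole, the catalytic subunit of the leading-strand polymerase epsilon, had log2 values of 8.55, 8.93 and 8.91 in untreated WT, 7.96, 7.86 and 8.06 in irradiated WT, 8.93, 9.04 and 8.78 in untreated KO and 7.98, 8.04 and 8.03 in irradiated KO cells. Pole2, its second subunit, had 7.04, 7.42 and 7.25 in untreated WT, 6.45, 6.77 and 5.87 in irradiated WT, 7.22, 7.36 and 7.28 in untreated KO and 6.42, 6.09 and 6.26 in irradiated KO cells. Both genes parted the 6 irradiated from the 6 untreated arrays, narrowly spaced for Pole and with irradiated WT replicate 3 far down for Pole2.

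Pole fell by 0.84 in WT and by 0.90 in KO cells (SE 0.12 each, limma adjusted p = 0.0021 and 0.0013), and no single array ended either call. A second, dim probe set of Pole, with means of 4.53 to 4.67, did not move downwards, and with the mean of both probe sets the WT change was -0.35 (adjusted p = 0.051). Pole2 fell by 0.87 in WT (SE 0.19, adjusted p = 0.022) and by 1.03 in KO cells (SE 0.19, adjusted p = 0.0079). Its WT call was lost without untreated WT replicate 2 (adjusted p = 0.11) or 3 (0.084) or irradiated WT replicate 3 (0.061), and with only the WT arrays (0.062).

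Prim1, the catalytic subunit of primase, had log2 values of 8.09, 8.26 and 8.17 in untreated WT, 7.24, 7.63 and 7.08 in irradiated WT, 8.08, 8.58 and 7.82 in untreated KO and 7.43, 7.03 and 7.25 in irradiated KO cells. Pola2, the second subunit of polymerase alpha, had 9.48, 10.03 and 9.77 in untreated WT, 9.07, 9.20 and 9.03 in irradiated WT, 9.78, 9.97 and 9.60 in untreated KO and 9.43, 9.07 and 9.17 in irradiated KO cells. Pola1, the catalytic subunit of polymerase alpha, had 8.16, 8.45 and 8.72 in untreated WT, 7.85, 7.96 and 8.31 in irradiated WT, 8.50, 8.73 and 8.57 in untreated KO and 7.69, 8.06 and 8.07 in irradiated KO cells. Prim1 and Pola2 parted the groups in each genotype, whereas for Pola1 irradiated WT replicate 3 lay above untreated WT replicate 1.

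Prim1 fell by 0.86 in WT (SE 0.19, limma adjusted p = 0.024) and by 0.93 in KO cells (SE 0.19, adjusted p = 0.015). Pola2 fell by 0.66 in WT cells (SE 0.15, adjusted p = 0.030) and had -0.56 in KO cells (adjusted p = 0.053). Pola1 had -0.41 in WT cells (SE 0.17, adjusted p = 0.21) and fell by 0.66 in KO cells (adjusted p = 0.039). Prim2, the regulatory subunit of primase, fell by 0.38 on average (SE 0.11, adjusted p = 0.029).

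Leaving out a single array, which also leaves fewer arrays in the fit, ended several of these calls. Prim1 then stayed between -1.02 and -0.74 in WT and between -1.10 and -0.71 in KO cells. Pola2 stayed between -0.79 and -0.52 in WT, Pola1 between -0.72 and -0.54 in KO cells and Prim2 between -0.45 and -0.32 on average. Prim1 lost its WT call without untreated WT replicate 2 (limma adjusted p = 0.10) or 3 (0.085) or irradiated WT replicate 1 (0.062) or 3 (0.11). It lost its KO call without untreated KO replicate 2 (0.062) or irradiated KO replicate 2 (0.067), and with only the KO arrays (0.053). Pola2 lost its WT call without untreated WT replicate 2 (0.13) or 3 (0.10) or irradiated WT replicate 1 (0.069), 2 (0.051) or 3 (0.11). Pola1 lost its KO call without untreated WT replicate 2 (0.057), without any of untreated KO replicates 1, 2 and 3 (0.081, 0.15 and 0.087) or irradiated KO replicates 1, 2 and 3 (0.078, 0.076 and 0.067), and after cyclic loess (0.053). Prim2 lost its averaged call without untreated WT replicate 2 (0.071) or 3 (0.064), irradiated WT replicate 1 (0.060), untreated KO replicate 1 (0.052) or 2 (0.074) or irradiated KO replicate 2 (0.070), and after cyclic loess (0.055).

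Both genes that finish the lagging strand fell with the genotypes averaged. Lig1, the ligase that seals nicks between Okazaki fragments, had log2 values of 9.22, 9.51 and 9.47 in untreated WT, 8.49, 8.76 and 8.65 in irradiated WT, 9.45, 9.72 and 9.27 in untreated KO and 8.65, 8.52 and 8.82 in irradiated KO cells. The lowest untreated array lay above the highest irradiated array over both genotypes. Lig1 fell by 0.77 in WT and by 0.82 in KO cells (SE 0.14 each, limma adjusted p = 0.0080 and 0.0047), and neither call was lost without any single array. Fen1, the nuclease that trims flaps, fell by 0.45 on average (SE 0.12, adjusted p = 0.021). That call was lost without untreated WT replicate 2 (adjusted p = 0.057), untreated KO replicate 1 (0.051) or 2 (0.056) or irradiated KO replicate 2 (0.054) or 3 (0.050).

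Of the 5 nucleotide synthesis genes, 2 fell in WT, 3 in KO and 4 with both averaged, with a median averaged change of -0.75. Tyms, thymidylate synthase, which makes dTMP, had log2 values of 8.97, 9.17 and 9.0 in untreated WT, 8.17, 8.41 and 8.30 in irradiated WT, 8.86, 9.24 and 8.94 in untreated KO and 8.14, 8.27 and 8.39 in irradiated KO cells. Tk1, the thymidine kinase of the salvage route, had 7.41, 7.77 and 7.63 in untreated WT, 6.89, 7.17 and 6.72 in irradiated WT, 7.48, 8.32 and 7.65 in untreated KO and 6.90, 6.76 and 6.97 in irradiated KO cells. Both parted irradiated from untreated arrays, with untreated KO replicate 2 standing high for Tk1.

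Tyms fell by 0.75 in WT and in KO cells (SE 0.13 each, limma adjusted p = 0.0047 and 0.0044), and no single array ended either call. Tk1 had -0.68 in WT (SE 0.20, adjusted p = 0.074) and fell by 0.94 in KO cells (SE 0.20, adjusted p = 0.016). The KO call of Tk1 was lost without irradiated KO replicate 2 (adjusted p = 0.066) and with only the KO arrays (0.057). Dut, the dUTPase that keeps uracil out of DNA, fell by 0.41 on average (SE 0.11, adjusted p = 0.022). That call was lost without untreated WT replicate 2 (0.059) or 3 (0.054), irradiated WT replicate 3 (0.051) or untreated KO replicate 2 (0.059), and with the mean of its 2 probe sets (0.12).

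Ribonucleotide reductase makes deoxynucleotides from ribonucleotides, and by the brightest probe sets 1 of its 2 listed subunits fell. Rrm1, the large subunit, had log2 values of 8.56, 8.89 and 8.42 in untreated WT, 7.89, 8.07 and 7.40 in irradiated WT, 8.73, 8.97 and 8.42 in untreated KO and 7.99, 7.56 and 7.85 in irradiated KO cells. Rrm2, the small subunit of cycling cells, had 7.58, 8.15 and 7.94 in untreated WT, 7.54, 7.63 and 7.62 in irradiated WT, 8.01, 8.42 and 7.67 in untreated KO and 7.69, 7.47 and 7.84 in irradiated KO cells. Rrm1 parted the groups and Rrm2 did not, since untreated WT replicate 1 and untreated KO replicate 3 lay among the irradiated arrays.

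Rrm1 fell by 0.84 in WT (SE 0.20, limma adjusted p = 0.033) and by 0.91 in KO cells (SE 0.20, adjusted p = 0.020), while Rrm2 had -0.33 on average (SE 0.13, adjusted p = 0.12). A second, dim probe set of Rrm2 changed by -0.44 in WT and -0.19 in KO cells. Rrm2 gained an averaged call with the mean of both probe sets (limma adjusted p = 0.040) and without untreated KO replicate 3 (0.044). The difference between the 2 subunits was not tested. Rrm1 lost its WT call without untreated WT replicate 1 (adjusted p = 0.057), 2 (0.15) or 3 (0.061) or irradiated WT replicate 1 (0.055) or 3 (0.13). It lost its KO call without untreated KO replicate 1 (0.066) or 2 (0.095) or irradiated KO replicate 2 (0.086) or 3 (0.053). Rrm2b, the alternative small subunit that p53 induces, had 6.70, 6.96 and 6.84 in untreated WT, 6.94, 7.19 and 6.92 in irradiated WT, 6.88, 6.99 and 6.87 in untreated KO and 6.96, 7.25 and 7.11 in irradiated KO cells. Its values overlapped, with changes of 0.18 in WT and 0.20 in KO cells (SE 0.12 each, adjusted p = 0.43 and 0.41).

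**Figure D4:**
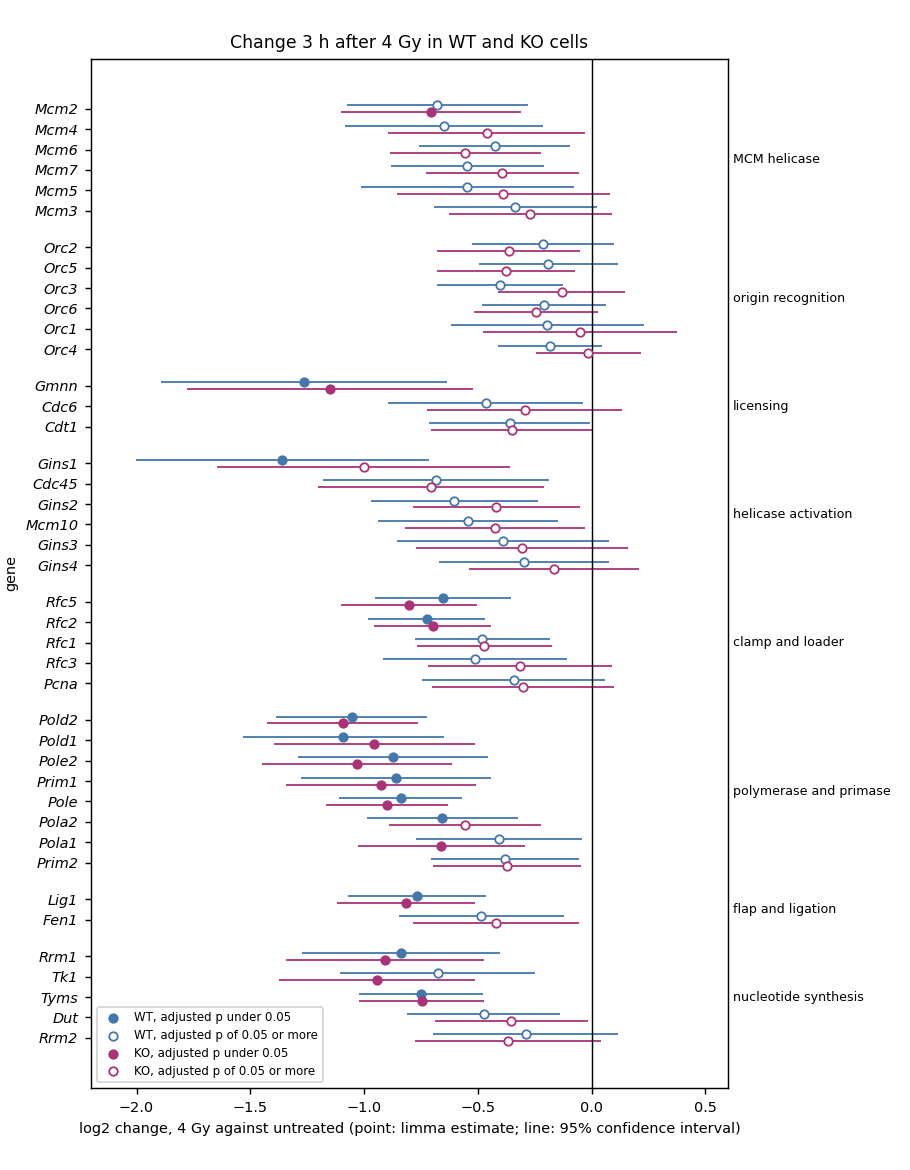
Log2 change after 4 Gy against untreated cells (x axis) of the 41 genes (y axis, by role), in WT (blue) and KO cells (purple). Points are limma estimates, lines 95% confidence intervals, and filled points have an adjusted p under 0.05, which 13 do in WT and 14 in KO cells.

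For no gene of the list was a difference between the genotypes detected. Of 41, 0 were called between KO and WT without irradiation, after it, or with both doses averaged (1 of all 15348 genes, Zc3hc1, in each, which is 0.00652%), and by unadjusted limma p under 0.05 the counts were 0, 0 and 1. Estimates lay between -0.22 and 0.22 in untreated cells, with 95% intervals reaching from -0.84 to 0.65, and between -0.19 and 0.39 in irradiated cells, with intervals reaching from -0.72 to 0.83. The median half-width of these intervals was 0.37. In untreated cells the KO arrays lay wholly below the WT arrays in 1 gene, Rfc3 (3.55% of all genes), and wholly above in 0 (4.4% of all genes). In irradiated cells they lay wholly above in 3 genes, Orc1, Cdc6 and Rfc1 (2.57% of all genes), and wholly below in 0 (3.83% of all genes).

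The smallest p between genotypes in untreated cells was that of Rfc1 at 0.18 (SE 0.14, limma unadjusted p = 0.22). In irradiated cells it was that of Cdc6, the loader of MCM, whose log2 values were 7.58, 8.21 and 8.39 in untreated WT, 7.60, 7.69 and 7.49 in irradiated WT, 8.10, 8.48 and 8.26 in untreated KO and 7.95, 7.74 and 8.26 in irradiated KO cells. Cdc6 was 0.39 higher in irradiated KO than in irradiated WT cells (SE 0.20, 95% interval -0.04 to 0.82, unadjusted p = 0.071, adjusted p = 1.0). Averaged over doses it was 0.30 higher (limma unadjusted p = 0.049), the only one of the 41 under 0.05.

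The irradiation change itself was compared between genotypes as an interaction, the change in KO minus the change in WT cells. Of 41, 0 passed (0% of all genes tested), 0 had an unadjusted limma p under 0.05, and no 95% interval excluded 0. Estimates ran from -0.27 (Tk1) to 0.36 (Gins1), with a median half-width of the interval of 0.52, and the bounds reached -0.87 and 1.27. The change lay further below 0 in WT cells for 25 genes and in KO cells for 16. Orc3, a core ORC subunit with the smallest p, had 9.08, 9.02 and 9.07 in untreated WT, 8.91, 8.60 and 8.46 in irradiated WT, 9.07, 8.96 and 8.76 in untreated KO and 8.90, 8.75 and 8.73 in irradiated KO cells. Its WT arrays parted by dose and its KO arrays overlapped, and the interaction was 0.27 (SE 0.18, 95% interval -0.12 to 0.66; limma adjusted p = 1.0). The genes called in 1 genotype alone are thus not shown to differ between genotypes.

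Within each group the genes of the list tended to move together from array to array. Untreated WT array 1 was the lowest of its group in 36 of 41 genes and array 2 the highest in 32, and untreated KO replicate 3 was the lowest in 34 and array 2 the highest in 35. Among irradiated arrays, WT replicate 2 was the highest of its group in 28 genes and KO replicate 2 the lowest in 25. Such ranks were not counted over all genes, so whether the list differs from other genes in this was not tested. The list's mean difference from the untreated WT mean was -0.20, 0.16 and 0.03 on untreated WT replicates 1, 2 and 3 and 0.01, 0.21 and -0.17 on untreated KO arrays. On irradiated arrays it was -0.60, -0.42 and -0.71 in WT and -0.44, -0.67 and -0.47 in KO cells, so the highest irradiated array lay below the lowest untreated one. The median SD of a gene within a group was 0.20 in each group, against 0.14 to 0.18 over all genes.

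Other lists moved beside these genes, and their part in the result was not tested. Of 11 mitosis genes tested, 11 fell in WT and 10 in KO cells, with medians of -1.81 and -1.62, and their mean level was 8.37 to 9.02 on untreated and 6.79 to 7.59 on irradiated arrays. By the mitosis mean, the arrays of each untreated group stood in the same order as by the mean of the replication genes, and those of each irradiated group in another order. Of 6 erythroid markers tested, 1 fell in WT and 4 in KO cells, with medians of -0.58 and -0.83. Of 4 B cell, 2 T and NK cell, 7 granulocyte, 5 monocyte, 3 megakaryocyte, 3 mast cell and 5 endothelial and stromal markers tested, 0 were called in either genotype. Over all genes 4.83% were called in WT and 5.94% in KO cells, so 0 calls does not set these markers apart. By list, the median half-width of their confidence intervals ran from 0.42 (endothelial and stromal) to 1.18 (B cell) in each genotype. Unchanged levels of these markers are thus not shown. Of 8 LSK and stem cell markers, 1 fell in WT (limma adjusted p = 0.00058) and 1 in KO cells (0.0037). Estimates of the 8 ran from -1.30 to 0.84 in WT and from -0.96 to 0.77 in KO cells.

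**Figure D5:**
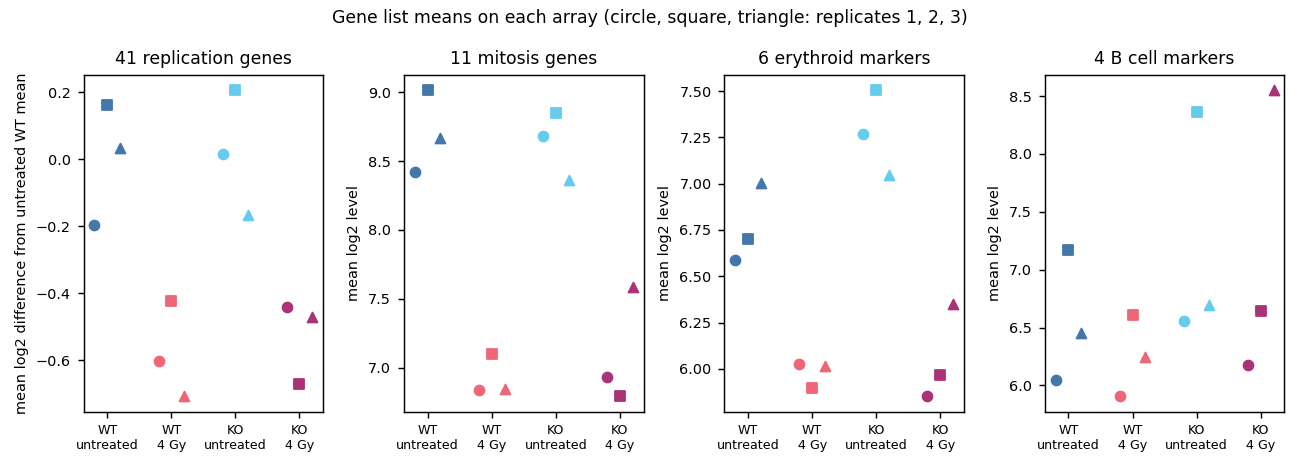
Mean over each gene list on each array by group (x axis): the 41 replication genes as log2 difference from the untreated WT mean, and the mean log2 level of 11 mitosis genes, 6 erythroid markers and 4 B cell markers. The first 3 lists are lower on every irradiated array, and the B cell mean is above 8 on untreated KO replicate 2 and irradiated KO replicate 3 only.

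Of 69 further genes of replication and nucleotide synthesis, 61 were tested. Among the 61, 13 fell in WT cells, 19 in KO cells and 31 with both averaged, with medians of -0.41, -0.43 and -0.40. Over all genes 2.7%, 3.2% and 9.6% fell and 2.13%, 2.74% and 6.9% rose, in the same order. Estimates were above 0 for 7 of the 61 in each genotype, 4 of them in purine and pyrimidine synthesis. None rose in either genotype and 1 rose with both averaged, Top1, the topoisomerase that relaxes DNA ahead of forks, by 0.36 (limma adjusted p = 0.033). Counts were 2 of 11 in WT and 7 of 11 in KO for firing and fork factors, 4 and 4 of 16 for further replisome subunits, and 2 and 2 of 7 for chromatin assembly and topoisomerases. They were 3 and 3 of 11 for deoxynucleotide and folate enzymes and 2 and 3 of 16 for purine and pyrimidine synthesis. In the interaction 0 of the 61 were called and 0 had an unadjusted limma p under 0.05. Unequal counts in WT and KO cells thus do not show a difference between genotypes.

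The 8 of these genes with the smallest p in the averaged contrast came from all 5 groups. Top2a, the topoisomerase that untangles sister chromatids, fell by 1.70 on average (SE 0.21, limma adjusted p = 0.00020), Ticrr, which helps to fire origins, by 1.15, and Asf1b, a histone chaperone, by 1.10. Dtymk, the thymidylate kinase that acts after Tyms and Tk1, fell by 0.89 and Dctpp1, which removes altered dCTP, by 0.88. Ppat and Gart, enzymes of purine synthesis, fell by 0.75 and 0.66, and Dscc1, a part of the alternative loader of PCNA, by 0.69. The count of such genes in WT cells was 5 without untreated WT replicate 2, 6 without untreated WT replicate 3, 6 without irradiated WT replicate 3 and 20 without untreated WT replicate 1. In KO cells it was 7 without untreated KO replicate 1, 4 without untreated KO replicate 2, 5 without irradiated KO replicate 2, 9 without irradiated KO replicate 3, 9 with only the KO arrays and 3 without the 2 arrays high in B cell markers.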

How the data were processed

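The values are the authors' deposited log2 expression values, 1 per probe set and array, for 41345 probe sets on 12 arrays. The submitters' processing notes name oligo and RMA, which corrects background, normalizes by quantiles and summarises probes, so a shift shared by all genes would be removed. No source used here gives their versions, the genome build or the annotation. GEO's platform annotation named the probe sets. Exactly 1 symbol was given for 23521, several for 1814 and none for 16010, and 23328 matched a RefSeq gene ID. The brightest probe set stood for each gene. Genes above the 40th percentile of the table (5.29) on at least 3 arrays were tested. Levels of different probe sets were not compared.

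Groups and replicate numbers came from the titles. limma 3.58.1 in R 4.3.3 fitted 1 model over all 12 arrays (lmFit and eBayes, two-sided, Benjamini-Hochberg over 15348 genes, threshold 0.05). The fit was tested on simulated data. An exact permutation test of 3 against 3 cannot go below p = 0.1. The genes, lists, tests and the rule for named genes were chosen with earlier results of these data known. The rule gives values on every array for the 12 genes of smallest p and the 3 of highest change in the averaged irradiation contrast, the gene of smallest p in each genotype contrast and the interaction, and genes called in 1 genotype. Alternatives were array medians or cyclic loess, a stricter brightness limit or none, a trended robust prior, replicate blocks, the mean of probe sets, only the arrays compared, and leaving out arrays. Same-numbered WT arrays deviated together (r 0.42 to 0.49 between untreated and irradiated). Same-numbered KO arrays did so for replicate 1 (0.47) and not for replicates 2 (-0.24) and 3 (-0.12). Untreated KO replicate 2 deviated with irradiated KO replicate 3 (0.44), and untreated KO replicate 3 with irradiated KO replicate 2 (0.52). A block on these crossed KO pairs was not fitted. Array precision rests on the number of arrays, since arrays have no read depth. Promoter bases came from RefSeq GRCm38.p6.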

Additional observations from a re-analysis of the deposited data

How the results depend on the processing

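The 41 irradiation estimates in each genotype stayed below 0 under every alternative run, except for Orc1 and Orc4 in KO cells. Without single arrays Orc1 lay between -0.24 and 0.073, above 0 without untreated KO replicate 2 and without irradiated KO replicates 1 or 2. Orc4 lay between -0.081 and 0.064, above 0 without replicate 2 of either KO group, and was 0.041 after cyclic loess. Neither was called in any of these, and the cause was not tested. Leaving out 1 array, 6 to 17 listed genes were called in WT and 7 to 18 in KO cells, and of the other pathway genes 5 to 20 in WT and 4 to 21 in KO cells. Of the calls, 6 of 13 in WT, 7 of 14 in KO and 22 of 26 averaged held without each of the 12 arrays. Without both KO arrays high in B cell markers, a setting chosen after seeing the data, 4 listed and 3 other pathway genes were called in KO cells, with fewer arrays. With only the KO arrays, 9 other pathway genes were called. In the fit with a replicate block in each genotype, 15 listed genes were called in WT, 18 in KO and 31 averaged. The number pairs the WT arrays, but for the KO arrays it does so only in replicate 1. The KO and averaged counts thus rest partly on KO blocks that the arrays did not show. So does the WT count, through the spread per gene that this fit shares over all arrays. A block joining untreated KO replicates 2 and 3 to irradiated KO replicates 3 and 2 was not fitted. Of 2539 values of single genes under alternatives, 2378 kept direction and side of the threshold, 86 lost a call, 69 gained one and 6 changed sign. No difference between genotypes and no interaction was called for a listed gene under any alternative. The number of arrays limits what could be detected.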
